A study of Mus musculus with 60 samples.

Results

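Fatty acid synthesis was followed through 10 genes in primary mouse hepatocytes: the enzymes Acly, Acaca, Fasn, Elovl6, Scd1 and Me1, the lipogenic accessory protein Thrsp, the transcription factors Srebf1 and Mlxipl, and the lipid droplet protein Pnpla3. They are 10 of the 23126 genes in the deposited table, found by symbol, and all 10 were present. The group was chosen by measured values of these libraries, the ppm difference of Thrsp between offspring of nicotine-exposed and control fathers, so that difference is given below as a description without a test. Changes with time in culture, and the relation of the genes to each other across animals of one father group, were not used to choose them and were tested. The genes were, however, chosen with earlier results of these data known.

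The study asked whether a father's nicotine intake alters drug metabolism in his offspring, and measured RNA in 60 libraries of hepatocytes from 20 male C57BL/6J F1 mice aged 8 weeks. The fathers drank nicotine (NIC, 10 offspring) or the control solution tartaric acid (TA, 10 offspring) from 3 weeks of age and drank tap water for 1 week before mating with control females. The labels give the offspring no treatment of their own. Each came from a different litter, and the livers were perfused with collagenase and disaggregated whole, so that supporting cells were released with the hepatocytes. Cells adhered for 3 h, after which fresh medium with serum, insulin, transferrin, selenium and dexamethasone started the cultures. In the time course, 5 NIC and 5 TA animals gave 5 libraries each, at 0 h, 1 h, 3 h and 21 h and from another 21 h culture that the table calls "21 h none". What the word none refers to is not given in the sources used here, and the labels list dexamethasone for every time course culture. The other 5 animals per father gave 1 library each after 2 h with the solvent DMSO, 2 with dexamethasone (2 h Dex) and 3 without it (2 h no Dex). Library titles carry 4 dates. Dates A (3 animals per father) and B (2 per father) hold the time course, date C the 2 h Dex animals and date D the 2 h no Dex animals, so that dexamethasone at 2 h cannot be told apart from date.

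Values are given in ppm, the authors' normalised value per gene and library. In the time course and on date D the values behave as TPM, scaled by transcript length, and on date C as CPM, not scaled by length, so that levels of date C are not compared with those of other dates, and in fits that use all libraries its values enter within their own culture and date. Date C had between 1530794 and 2793007 reads per library. For the time course no read totals are known, and depth as a share of that of the deepest library of the same date was estimated at 0.0242 to 1. The 3 shallowest libraries, at 0.0898, 0.0338 and 0.0242, were NIC animals 11, 14 and 15 at 21 h, and the main results that rest on them are also given without them. The hepatocyte markers Alb, Ttr, Apoa1, Cps1 and Serpina1c were present in all 60 libraries. Of the 7 adipocyte markers, which matter because fat cells share the pathway, Adipoq was at 0 in 57 libraries, Plin1 in 56, Lep in 54, and Cfd and Retn in 52 each. Cidec was at 0 in 5 libraries, and Fabp4, the fatty acid binding protein of fat cells, was present in all 60 at 18.7 to 638 ppm.

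Liver cells turn surplus carbohydrate into fat by de novo lipogenesis. Citrate leaves the mitochondria and is split to acetyl-CoA, acetyl-CoA is carboxylated to malonyl-CoA, and fatty acid synthase joins these units to palmitate with reducing power from NADPH. Elongation and desaturation follow, and insulin and sugars drive the genes through SREBP-1c and ChREBP. Acly is ATP citrate lyase, Acaca is acetyl-CoA carboxylase alpha, Fasn is fatty acid synthase, Elovl6 lengthens palmitate, Scd1 inserts the first double bond, and Me1, the cytosolic malic enzyme, supplies NADPH. Srebf1 encodes SREBP-1 and Mlxipl encodes ChREBP. Thrsp encodes thyroid hormone responsive protein, a small nuclear and cytosolic protein of liver, fat and mammary gland that rises with thyroid hormone, insulin and carbohydrate feeding and promotes lipogenesis. Pnpla3 is a lipase-like protein of lipid droplets induced by carbohydrate feeding.

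In the mouse genome (RefSeq, GRCm38.p6) Thrsp lies on chromosome 7 at chr7:97412933-97417550, and 4 of the 10 genes, Fasn, Acaca, Acly and Srebf1, lie on chromosome 11. Because 9 of the genes moved together in culture, the 250 bases before a transcript start were read, the first start that the RefSeq promoter table gives for each gene, and 9 of the 10 genes had an entry (Scd1 is named only). For Thrsp, Acly, Elovl6 and Me1 this stretch lies outside the RefSeq span of the gene. For Fasn, Acaca, Srebf1 and Mlxipl it lies inside that span, because the span begins at another start, and for Pnpla3 the last 40 bases do. The sequences below are shown for Thrsp and for the first and the last enzyme on the way to palmitate. They run 5′ to 3′ on the strand of the gene, with matches to the searched motifs in capitals. Fasn (chr11:120824548-120824797, minus strand, 69.2% G or C) and Acly (chr11:100528001-100528250, minus strand, 68.8% G or C) are shown whole, and neither stretch overlaps a GENCODE vM21 exon. For Thrsp, where 180 of the 250 bases fall in the first exon as GENCODE starts the gene, 30 bases around one match are shown (chr7:97417586-97417615, minus strand).
Thrsp: gggctgtgttgctCCAATggttgggctttg
Fasn: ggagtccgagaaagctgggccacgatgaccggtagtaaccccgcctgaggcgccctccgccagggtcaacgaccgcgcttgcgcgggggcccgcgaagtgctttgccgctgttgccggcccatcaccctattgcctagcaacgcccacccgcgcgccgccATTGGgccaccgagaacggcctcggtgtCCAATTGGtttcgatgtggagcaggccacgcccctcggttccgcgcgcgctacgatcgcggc
Acly: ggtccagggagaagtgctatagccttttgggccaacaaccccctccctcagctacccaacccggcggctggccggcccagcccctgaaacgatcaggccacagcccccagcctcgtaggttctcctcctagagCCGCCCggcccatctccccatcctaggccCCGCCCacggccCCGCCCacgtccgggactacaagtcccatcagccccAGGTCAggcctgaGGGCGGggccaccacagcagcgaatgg

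The searched motifs were CCAAT (the CCAAT box), GGGCGG (the GC box), CACGTG (the E-box), TCACNCCAC (a sterol regulatory element) and AGGTCA (the nuclear receptor half-site), each on both strands. CCAAT was found in the stretches of 4 of the genes, Thrsp, Fasn, Srebf1 and Pnpla3, and in 34.5% of all 27025 promoters of the same length. Counted back from that transcript start, Thrsp had it at -79 to -75 on the opposite strand and at -52 to -48 on its own strand, the one printed. Fasn had it at -90 to -86, -62 to -58 and -59 to -55, the last pair overlapping on opposite strands. Acly had no CCAAT but GGGCGG at 4 places, a motif found in 32.9% of promoters, and AGGTCA at -40 to -35, found in 13.8%. TCACNCCAC occurred for Mlxipl alone among the 9 (1.04% of promoters) and CACGTG for none (6.05%). These matches describe letters in one window and say nothing of binding.

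The 10 genes differed widely in level at the start of culture. Ranked among all genes by mean ppm over the 10 libraries at 0 h, Scd1 stood at rank 57 (2125 ppm) and Thrsp at rank 70 (1721 ppm). Acly (147 ppm), Me1 (80.6 ppm), Srebf1 (72.6 ppm), Fasn (71.9 ppm), Elovl6 (51.0 ppm), Mlxipl (50.0 ppm) and Acaca (26.3 ppm) followed between rank 751 and rank 2679. The levels of Me1, Srebf1 and Fasn lay within each other's spread, with an SD of 26.7 ppm for Me1 and 32.6 ppm for Fasn over the 10 libraries, as did those of Elovl6 and Mlxipl. Pnpla3 was close to absent, with a mean of 0.308 ppm at 0 h and a value of 0 in 22 of the 60 libraries, and its mean over all libraries, 0.529 ppm, left it below the minimum of 1 ppm that was set for testing on this mean. Thus 9 of the 10 genes were among the 11135 tested.

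Over 21 h in culture all 9 tested genes fell. Fasn retained 0.229 times its 0 h level at 21 h, Elovl6 0.304 times and Mlxipl 0.312 times, while Scd1 retained 0.577 times and Me1 0.571 times, and the falls were not tested against each other. Of all genes tested, 21.7% were lower and 29.0% higher at 21 h than at 0 h by the same rule (limma with the animal as block, Benjamini-Hochberg adjusted p under 0.05), and the median change was -1.28 on the log2 scale over the 9 genes against 0.12 over all genes. In bulk RNA, fewer cells of a type and less RNA per cell cannot be told apart.

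**Figure D1:**
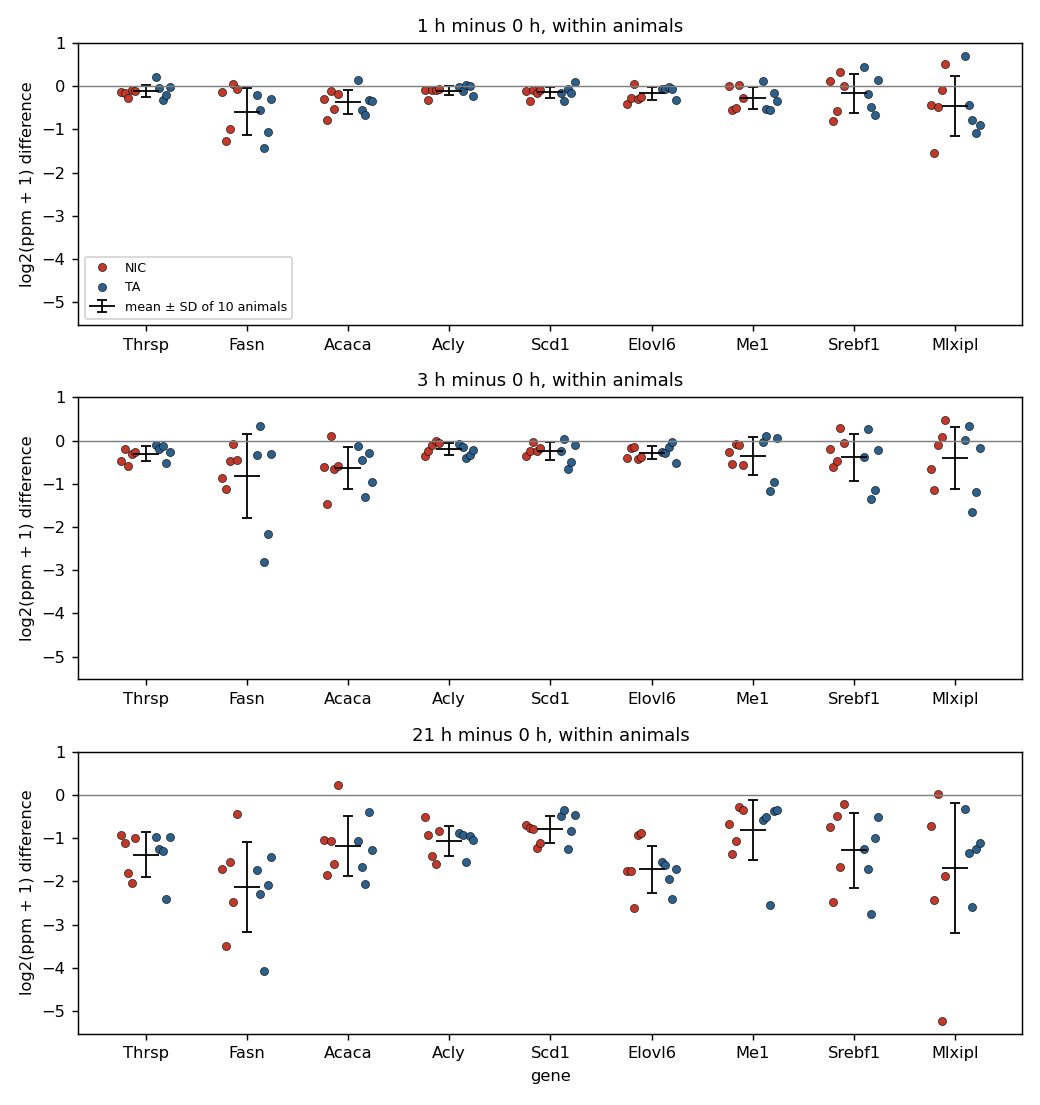
Change of each gene from 0 h within each animal, on log2(ppm + 1), at 1 h, 3 h and 21 h (panels from top to bottom). Each point is 1 animal, 5 NIC and 5 TA, and the bars give the mean ± SD of the 10 animals; at 21 h the means run from -0.79 for Scd1 to -2.13 for Fasn, and the lowest single point is Mlxipl in NIC animal 14 at -5.23, where the gene was listed at 0.

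Fasn stood at 22.3, 8.11, 26.4, 5.86 and 24.6 ppm in NIC animals 11 to 15 at 21 h, against 75.3, 100.9, 79.3, 37.2 and 33.6 ppm in the same animals at 0 h. In TA animals 1 to 5 it stood at 9.72, 26.0, 4.97, 16.2 and 19.8 ppm at 21 h, against 34.7, 132, 99.7, 71.4 and 55.5 ppm at 0 h. Every library at 21 h was thus below every library at 0 h, and the difference was -2.13 ± 0.29 (log2 ± SE, adjusted p = 2.29e-08, limma). Elovl6, the elongase that works directly on the product of Fasn, was at 18.6, 16.7, 7.90, 32.5 and 18.2 ppm in NIC animals at 21 h, against 64.8, 58.5, 53.3, 62.5 and 34.6 ppm at 0 h. In TA animals it was at 14.2, 25.5, 11.7, 6.42 and 7.16 ppm at 21 h, against 43.3, 80.2, 48.1, 38.6 and 25.8 ppm at 0 h. The groups overlapped only through NIC animal 14 at 21 h, 1 of the 3 shallow libraries, and the difference was -1.72 ± 0.18 (adjusted p = 6.20e-11), or -2.08 without those 3.

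The enzymes that make acetyl-CoA and malonyl-CoA fell too. Acly ranged from 39.6 through a median of 75.3 to 102 ppm over the 10 libraries at 21 h, against 89.7, 139 and 197 ppm at 0 h, a difference of -1.06 ± 0.15 (adjusted p = 4.67e-08). Acaca ranged from 7.65 through 9.79 to 21.1 ppm at 21 h, against 17.8, 24.1 and 41.5 ppm at 0 h, a difference of -1.18 ± 0.20 (adjusted p = 3.89e-06). For both enzymes the ranges of 21 h and 0 h overlapped at their edges. Scd1, the desaturase, differed by -0.79 ± 0.16 (adjusted p = 6.32e-05) and Me1 by -0.81 ± 0.19 (adjusted p = 0.000376).

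The regulators fell with the enzymes. Srebf1 was at 46.8, 23.9, 33.7, 18.1 and 63.3 ppm in NIC animals 11 to 15 at 21 h, against 78.9, 138, 47.4, 59.96 and 73.0 ppm at 0 h. In TA animals it was at 18.9, 37.1, 9.90, 26.0 and 23.7 ppm at 21 h, against 46.1, 123, 72.5, 52.7 and 34.3 ppm at 0 h, and over all 10 animals the difference was -1.28 ± 0.26 (adjusted p = 5.42e-05). Mlxipl was at 38.0, 14.8, 37.8, 0 and 7.46 ppm in NIC animals at 21 h, against 63.2, 84.5, 37.2, 36.5 and 30.0 ppm at 0 h, and the 0 was in the second shallowest library. Its difference was -1.68 ± 0.31 (adjusted p = 1.40e-05), and over all 32 alternative settings, which include leaving out the shallow libraries, it lay between -1.94 and -1.12 and stayed past the threshold.

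Thrsp, the most abundant of the 10 after Scd1, stood at 1287, 1162, 470.0, 597 and 941 ppm in NIC animals 11 to 15 at 21 h, against 2459, 2491, 1640.1, 2459.8 and 1867 ppm at 0 h. In TA animals 1 to 5 it stood at 303, 1097, 463, 224 and 385 ppm at 21 h, against 596, 2608, 1138, 1192 and 759 ppm at 0 h. All 10 animals had less Thrsp at 21 h than at 0 h, while between animals the 2 times overlapped, because NIC animals at 21 h reached the level of TA animals at 0 h. The difference was -1.38 ± 0.24 (adjusted p = 5.72e-06), or 0.385 times the 0 h level, and it was -1.23 on date A and -1.60 on date B. Over the 32 alternative settings it ranged from -1.43 to -1.19.

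Within animals the fall was nearly uniform in direction. Thrsp, Fasn, Acly, Scd1, Elovl6, Me1 and Srebf1 were lower at 21 h than at 0 h in 10 of 10 animals (two-sided exact sign-flip permutation test, unadjusted p = 0.00195, the smallest that 1024 arrangements allow), as were 7.88% of all genes. Acaca and Mlxipl were lower in 9 of 10 (exact p = 0.0039). Me1 fell by 1.12 on date A and by 0.33 on date B. Marker sums were also compared between 21 h and 0 h. The sum over the 7 adipocyte markers was 187 to 659 ppm at 21 h, against 30.0 to 158 ppm at 0 h, nearly all of it Fabp4 and Cidec. Adipoq, Plin1, Lep, Cfd and Retn were at 0 in most libraries, so this sum follows Fabp4 and Cidec and is no measure of fat cells. The sum over the 7 markers of stellate cells and fibroblasts was 5.89 to 1901 ppm at 21 h, against 17.7 to 28.6 ppm at 0 h, and its highest value without the 3 shallow libraries was 81.9 ppm. Kupffer cell markers summed to 70.0 to 728 ppm at 21 h, or at most 225 ppm without those libraries, against 43.2 to 153 ppm at 0 h. The endothelial sum had a median of 50.0 ppm at 21 h, or 35.5 ppm without those libraries, against 76.5 ppm at 0 h. Biliary markers summed to 9.03 to 60.2 ppm at 21 h, against 4.62 to 53.4 ppm at 0 h, and leukocyte markers to at most 20.6 ppm at 21 h, against at most 5.45 ppm at 0 h. The sum of the 5 hepatocyte markers was 73065 to 162779 ppm at 21 h, against 103384 to 155623 ppm at 0 h. The part of these shifts in the falls was not tested. Without the 3 shallow libraries, 8 of the 9 genes were lower at 21 h in 7 of 7 animals, and Mlxipl in 6 of 7.

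Early in culture the decline was small. At 1 h and at 3 h all 9 tested genes had negative estimates, and 0 of 9 passed the test at either time, where 0.00898% of all genes passed at 1 h and 0.135% at 3 h. The largest limma estimate at 1 h was Fasn at -0.60 ± 0.29 (adjusted p = 1.00). Its unadjusted p of 0.0430 was the only 1 of the 9 under 0.05 in that fit. At 3 h it was again Fasn at -0.83 ± 0.29 (limma, adjusted p = 0.269). Acaca followed at 3 h with -0.64 ± 0.20 (limma, adjusted p = 0.216, unadjusted p = 0.00291). Fasn and Acaca were the only ones under an unadjusted 0.05 at 3 h in that fit, which uses the pairing within animals only in part. With sample weights in limma, Fasn, Acaca and Me1 passed at 3 h, and with quantile normalisation Acaca did.

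Measured within animals, Thrsp already moved in 1 direction at 3 h. It was at 1775, 2194, 1089, 1997 and 1559.7 ppm in NIC animals 11 to 15 at 3 h and at 559, 2291, 1049, 830.5 and 629.8 ppm in TA animals 1 to 5, below the 0 h value of the same animal in 10 of 10. The mean difference was -0.30 (SD 0.17, n = 10, exact sign-flip p = 0.00195, unadjusted), while limma over all genes gave an adjusted p of 0.799, and of 0.666 with the animal as a fixed term (replicate block). Acly (mean -0.19, SD 0.14) and Elovl6 (mean -0.28, SD 0.15) were likewise lower at 3 h in 10 of 10 animals (exact p = 0.00195 each, unadjusted). The same exact test at 3 h gave unadjusted p = 0.0039 for Acaca and for Scd1, 0.0078 for Fasn, 0.0234 for Me1 and 0.0488 for Srebf1. For Mlxipl it gave 0.125. Of all genes, 3.48% were lower in 10 of 10 animals at 3 h, and the median difference over all genes was -0.09. At 1 h Thrsp was lower in 9 of 10 animals (mean -0.11, SD 0.15, exact p = 0.0410, unadjusted), where 8.06% of all genes were lower in at least 9. The exact test at 1 h gave unadjusted p = 0.0039 for Fasn, 0.0059 for Acaca and for Elovl6, and 0.0078 for Scd1. For Acly it gave 0.0098, for Me1 0.0137, for Mlxipl 0.0703 and for Srebf1 0.256.

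In the second 21 h culture Thrsp was lower, and Acly higher, than in the first. Thrsp differed between 21 h none and 21 h by -0.68 ± 0.24 (0.623 times, adjusted p = 0.0334), where 3.27% of all genes were lower. Acly was higher by 0.44 ± 0.15 (1.35 times, adjusted p = 0.0257), where 23.2% were higher, and the other 7 tested genes did not pass. The median over all genes was itself shifted by 0.31 on the log2 scale in this comparison, and 0.12 at 21 h against 0 h. Relative to that shift the rise of Acly was smaller and the fall of Thrsp larger. The adipocyte marker sum was 264 to 581 ppm in 21 h none, against 187 to 659 ppm in 21 h, that of stellate cells and fibroblasts 10.7 to 208 ppm, against 5.89 to 1901 ppm, and that of Kupffer cells 36.9 to 123 ppm, against 70.0 to 728 ppm. Their part in the differences was not tested.

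Thrsp was at 859, 507, 304, 864 and 1039 ppm in NIC animals 11 to 15 in 21 h none, against 1287, 1162, 470.0, 597 and 941 ppm in 21 h. In TA animals 1 to 5 it was at 93.5, 214, 337, 159 and 356 ppm in 21 h none, against 303, 1097, 463, 224 and 385 ppm in 21 h. Of the 10 animals 8 were lower in 21 h none, the exceptions being NIC animals 14 and 15 of date B, whose 21 h libraries were the shallowest of all, and TA animal 2 had the widest gap. By date the mean difference was -1.15 on date A, lower in 6 of 6 animals, and 0.02 on date B, lower in 2 of 4 (exact sign-flip p over all 10 = 0.0293, unadjusted). Without the animals of the 3 shallow libraries it was -1.26 on date A and -0.30 on date B, lower in 7 of 7 animals. The call for Thrsp held in 24 of 32 alternatives (adjusted p 0.00126 to 0.118) and ended without the 3 shallow libraries (-0.66, adjusted p = 0.0705), without TA animal 2 (-0.52, adjusted p = 0.0964), and in turn without TA animal 1 (adjusted p = 0.0937) and NIC animals 11, 12 and 13 (adjusted p = 0.0743, 0.118 and 0.0535).

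Acly, which rose, was at 101.5, 102, 112, 89.0 and 72.9 ppm in NIC animals in 21 h none, against 88.0, 82.8, 53.8, 39.6 and 67.8 ppm in 21 h. In TA animals it was at 73.9, 84.2, 102, 84.1 and 115 ppm in 21 h none, against 48.4, 98.6, 45.5, 102 and 93.7 ppm in 21 h, so that 8 of 10 animals were higher and TA animals 2 and 4 were not (exact p = 0.0313, unadjusted). Its call held in 23 of 32 alternatives (adjusted p 0.00794 to 0.6004) and ended with median-ratio scaling (0.13) and quantile normalisation (0.25), and without TA animals 1 and 3 and NIC animals 13 and 14 in turn (0.33 to 0.40). Me1 differed by 0.83 on date A, higher in 6 of 6 animals, and by -0.65 on date B, lower in 4 of 4, and the date B value was -0.39 over TA animals 4 and 5, without the shallow libraries of NIC animals 14 and 15. Acaca differed by 0.90 on date A and by -0.57 on date B, and the date B value rested on those shallow libraries, being 0.17 without them. Pooled, neither passed (Acaca 0.31 ± 0.20, adjusted p = 0.251, and Me1 0.24 ± 0.19, adjusted p = 0.342), and whether the dates differed was not tested.

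Between offspring of NIC and TA fathers, Thrsp was the gene of the 10 that stood apart, which is why the group was formed. Over all 60 libraries it was 1.95 times as high in NIC as in TA hepatocytes, a difference of 0.97 ± 0.17 on the log2 scale. This SE takes 1 correlation between libraries of an animal for all genes, 0.0957. For Thrsp the 3 h minus 0 h difference within animals had an SD of 0.17. Between animals at 0 h the SD was 0.28 in NIC and 0.81 in TA (log2). The SE thus counts libraries of an animal as nearly independent and understates the spread between animals for Thrsp. The SEs of the other genes were computed in the same way. The other 8 tested genes lay between -0.26 ± 0.10 (Acly) and 0.22 ± 0.18 (Srebf1), with Scd1 at -0.24 ± 0.11, Mlxipl at -0.12 ± 0.21, Acaca at -0.13 ± 0.14, Me1 at -0.09 ± 0.13, Fasn at -0.07 ± 0.20 and Elovl6 at 0.19 ± 0.13. The estimates of Fasn, Acaca and Acly, the enzymes of the core pathway, were all at or below 0, as was the median over all genes tested, -0.11. Fasn and Acaca lay within 1 SE of that median. Adipocyte marker sums at 0 h were 30.0 to 134 ppm in NIC and 32.1 to 158 ppm in TA libraries, overlapping ranges. Over all libraries this sum was mostly Fabp4 and Cidec.

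**Figure D2:**
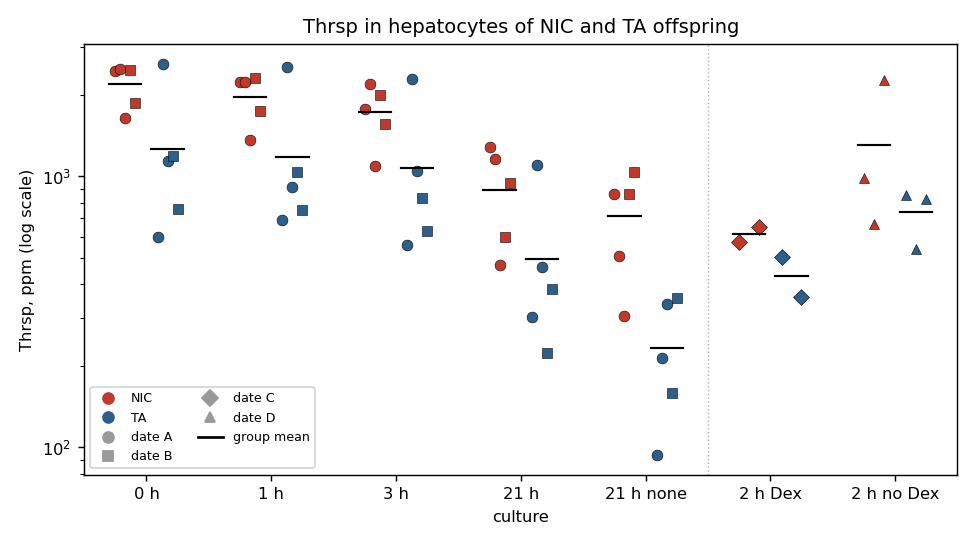
Thrsp in each of the 60 libraries (ppm, log scale) by culture, NIC left of TA, with marker shapes for the 4 title dates and bars for the group means. NIC means lie above TA means in all 7 cultures, for example 2183 and 1259 ppm at 0 h, and TA animal 2 (date A) lies among the NIC libraries at 0, 1, 3 and 21 h.

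By culture, the Thrsp means were 2183 ± 401 ppm in NIC and 1259 ± 795 ppm in TA offspring at 0 h (SD, n = 5 each). They were 1970.5 ± 407 and 1183 ± 761 ppm at 1 h, and 1723 ± 427 and 1072 ± 708 ppm at 3 h, again NIC and TA. At 21 h they were 892 ± 352 ppm in NIC and 495 ± 349 ppm in TA, and in 21 h none 715 ± 300 ppm in NIC and 232 ± 113 ppm in TA. The log2 difference was 0.97, 0.89, 0.85 and 0.98 at 0, 1, 3 and 21 h and 1.65 in 21 h none, each with an SE of 0.37. The median NIC minus TA over all genes tested was 0.02, -0.01, -0.07 and -0.14 at those times and -0.47 in 21 h none. The highest Thrsp estimate thus stood in the culture with the lowest median. At 21 h 3 of the 5 NIC libraries were the shallow ones. Over the other 2 the NIC mean was 816 ppm, and the difference without the shallow libraries was 0.92 ± 0.47.

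In the animals cultured for 2 h the estimates were lower, with wide SEs. With dexamethasone Thrsp was at 571 and 650.0 ppm in NIC animals 16 and 17 and at 504 and 358 ppm in TA animals 6 and 7, a difference of 0.52 ± 0.58. Without it Thrsp was at 989, 667 and 2269 ppm in NIC animals 18 to 20 and at 857, 540.2 and 826 ppm in TA animals 8 to 10, a difference of 0.66 ± 0.47. The NIC mean without dexamethasone rested on animal 20. From the whole reads recovered for the 2 h Dex libraries, edgeR gave 0.39 for Thrsp and -0.61 for Acly, an alternative added after the unit was seen.

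Across the 12 combinations of culture and date, the NIC mean of Thrsp was above the TA mean in 12, by 0.52 to 1.99, which held for 28 of the genes tested (0.251%). On date B, NIC and TA did not overlap in any of the 5 time course cultures, NIC above TA, which Thrsp alone of the 10 genes showed and which 0.629% of all genes showed. The 5 time course cultures of a date come from the same animals, so these combinations are not separate comparisons. Nor are the shares a test, since the group was chosen by the difference of Thrsp between fathers. Both NIC libraries of date B at 21 h were shallow, and without them none remained there. On date A the groups overlapped in every culture. At 0, 1, 3 and 21 h TA animal 2, at 2608, 2523, 2291 and 1097 ppm, was the only TA library above the lowest NIC library, and the lowest NIC library was animal 13 each time. Without TA animal 2 the difference was 1.16, and without TA animal 1 it was 0.79.

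**Figure D3:**
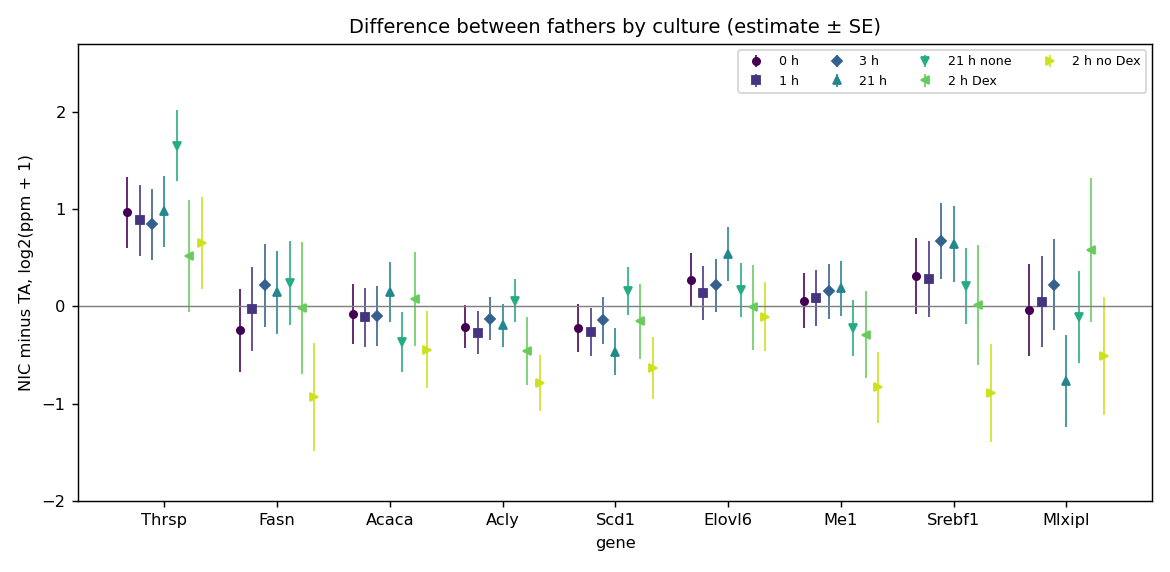
Difference between NIC and TA offspring (NIC minus TA, log2(ppm + 1), estimate ± SE from limma) for the 9 tested genes, with a marker for each of the 7 cultures. Thrsp lies above 0 in every culture, from 0.52 at 2 h Dex to 1.65 in 21 h none, and the 2 h no Dex markers of Fasn, Acly, Me1 and Srebf1 lie lowest, at -0.93, -0.79, -0.83 and -0.90.

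The estimates of 5 other genes at 21 h changed sign without the shallow libraries. They were 0.36 for Mlxipl without these libraries and -0.77 with them, -0.31 and 0.15 for Acaca, -0.19 and 0.54 for Elovl6, -0.25 and 0.18 for Me1, and -0.02 and 0.14 for Fasn. In the 2 h cultures the enzymes Me1 and Acly were the ones that lay wholly below TA. In 2 h no Dex, Me1 was at 37.0, 38.7 and 35.9 ppm in NIC animals 18 to 20 and at 73.0, 75.1 and 55.0 ppm in TA animals 8 to 10. Acly was at 72.5, 100.6 and 142.6 ppm in NIC and at 199.9, 189 and 143.5 ppm in TA animals, and these 2 were the tested genes of the group that lay wholly below TA, as did 6.18% of all genes. In 2 h Dex, Acly was at 325 and 293 ppm in NIC and at 528 and 343 ppm in TA animals, the only 1 of the 9 wholly below, where 11.1% of all genes were, so that the count is that of the background. Fasn (-0.02), Acaca (0.07) and Elovl6 (-0.01) had estimates near 0 there. Thrsp and Mlxipl were wholly above, where 25.4% of all genes were. Pnpla3 was listed at 0 in both NIC animals of 2 h Dex, against 0.358 and 0.554 ppm (CPM) in the TA animals, and in the 3 NIC animals of 2 h no Dex, against 0.184 to 0.960 ppm in the TA animals, levels near the lower limit of these libraries.

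The change of the Thrsp difference between fathers with time in culture is given as a description, since it is built from the differences by which the group was chosen. NIC minus TA at 21 h exceeded that at 0 h by 0.01 ± 0.49 (limma estimate ± SE, 95% interval -0.97 to 0.99). The other genes lay between -0.73 ± 0.63 (Mlxipl) and 0.39 ± 0.57 (Fasn). The mean fall of Thrsp was -1.37 in NIC and -1.38 in TA animals. The fall of the pathway in culture was thus not shown to differ between NIC and TA offspring.

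The difference between fathers was also set out for the time course animals against the 2 h animals, as a description, since the group was chosen by differences between fathers. With its sign kept, NIC minus TA was higher in the time course by 0.48 ± 0.42 for Thrsp and 0.48 ± 0.26 for Acly (limma estimate ± SE). It was higher by 0.62 ± 0.33 for Me1 and 0.87 ± 0.45 for Srebf1, and estimates were positive for 8 of the 9 genes. A higher value is not always a wider gap between fathers. In 2 h Dex and 2 h no Dex NIC lay below TA in Acly (-0.46 and -0.79) and Me1 (-0.29 and -0.83). For Srebf1 the 2 h estimates were 0.01 and -0.90.

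Among animals of one father group, the relation of Thrsp was closest with Srebf1, but it did not pass the adjustment. Each animal was set against the mean of its father and date group, using the mean of 0, 1 and 3 h or the 2 h library. Over 20 animals Pearson's r of Thrsp with Srebf1 was 0.76 (two-sided exact permutation within father and date, p = 0.0214, adjusted over 9 relations 0.192) and Spearman's rho 0.65 (p = 0.0199, adjusted 0.179). Acly followed with r 0.66 (permutation p = 0.0820, adjusted 0.210) and rho 0.56 (p = 0.0628, adjusted 0.283), then Mlxipl (r 0.51), Scd1 (r 0.49) and Fasn (r 0.47), with Acaca and Me1 near 0 (r -0.01 and -0.06). Without the 2 animals farthest from the median of Thrsp, TA animal 2 and NIC animal 20, r was 0.29 for Srebf1, 0.11 for Acly and -0.23 for Fasn. These relations thus rested largely on those 2 animals together. They were picked by Thrsp itself, and leaving them out narrows its range, which can lower r. With each animal left out alone, r was 0.63 to 0.84 for Srebf1 and 0.49 to 0.73 for Acly. In the 10 time course animals alone r was 0.85 for Srebf1 and 0.81 for Acly. In the 10 animals of the 2 h cultures, again set against the mean of their father and date group, r was 0.53 for Acly. For Acaca and Elovl6 it was -0.77 and -0.76. These groups held 2 or 3 animals each and included NIC animal 20, so the values are a description.

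**Figure D4:**
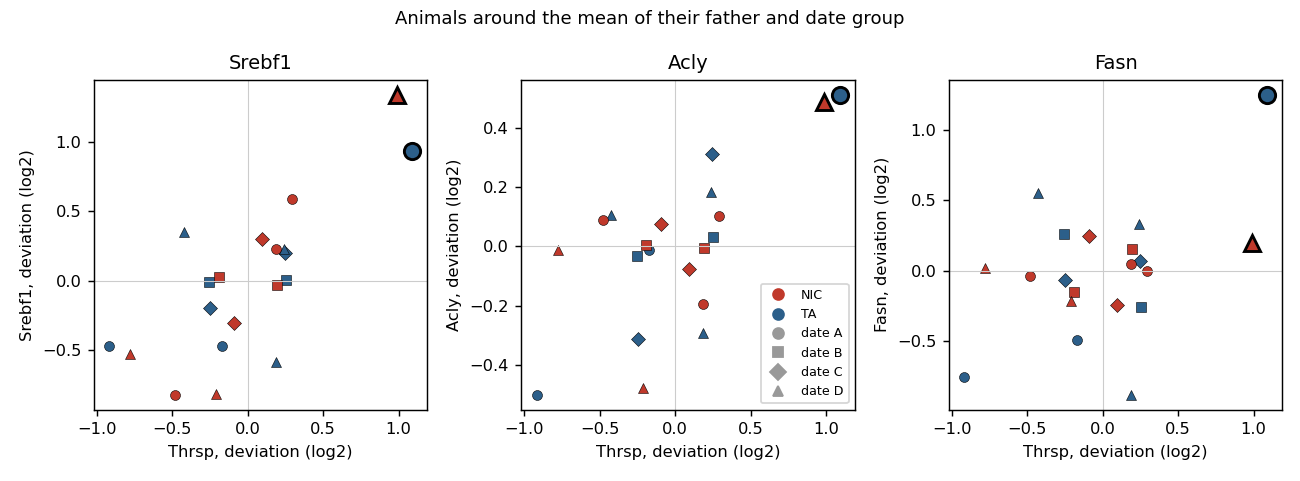
Deviation of each of the 20 animals from the mean of its father and date group (log2), Thrsp on the x axis and Srebf1, Acly or Fasn on the y axis, with marker shapes for the dates. The large outlined points are TA animal 2 and NIC animal 20, at the far right of each panel; with them r is 0.76, 0.66 and 0.47, and without them 0.29, 0.11 and -0.23.

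TA animal 2 was the highest of the 5 TA animals in 4 of 5 cultures for both Thrsp and Fasn. Averaged over cultures it lay above the TA mean by 1.05 (log2) in Thrsp and by 0.97 in Fasn. At 3 h it had 166 ppm Fasn and 148 ppm Srebf1, against 13.4 to 44.8 ppm Fasn and 23.2 to 35.2 ppm Srebf1 in the other 4 TA animals. In 21 h none this had gone, with 7.80 ppm Fasn and 15.2 ppm Srebf1 in TA animal 2, within the range of the other TA animals.

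Over the 60 libraries, with the mean of each father, culture and date group removed, the genes most like Thrsp were Abca8a (Pearson's r 0.82), Akr1d1 (0.81), G6pc (0.81), Car3 (0.80) and Sult1a1 (0.79). Akr1d1 is the steroid 5-beta-reductase of bile acid synthesis, G6pc the catalytic subunit of glucose-6-phosphatase, Car3 a carbonic anhydrase abundant in liver and fat, and Sult1a1 a sulfotransferase. Of the other genes of the pathway, Acly ranked 35 of 11134 (r 0.70), Srebf1 73 (0.66), Elovl6 390 (0.46), Fasn 417 (0.45), Scd1 547 (0.39), Mlxipl 1631 (0.16), Acaca 2600 (0.06) and Me1 5531 (-0.15, against a median of -0.15 over all genes). Without the 3 shallow libraries Sult1a1 came first (r 0.83), the other 4 of these genes stood at ranks 3 to 6, Acly at rank 62 and Srebf1 at rank 121. Libraries of one animal share their source, so this order is a description.

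Of 91 further genes in 5 lists of lipid metabolism, 89 were tested, and 53 were lower and 11 higher at 21 h than at 0 h. Over all genes 21.7% were lower and 29.0% higher. In the list of carbon and NADPH supply, 12 of 20 were lower and 4 higher (median -0.61). Mthfd1, a folate enzyme that makes NADPH, fell to a median of 33.5 ppm at 21 h, against 119 ppm at 0 h (-1.93 ± 0.14, adjusted p = 3.84e-16). The cytosolic isocitrate dehydrogenase Idh1 fell to a median of 165 ppm at 21 h, against 389 ppm at 0 h (-1.40 ± 0.18, adjusted p = 4.50e-09). For both genes no library at 21 h reached the lowest at 0 h. Tkfc, the triokinase of fructose breakdown, fell by 1.22.

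Of the elongases, desaturases and partner enzymes, 10 of 13 were lower and 1 higher (median -0.88). Fads2, a desaturase of polyunsaturated fatty acids, had a median of 78.9 ppm at 21 h, against 276 ppm at 0 h (-1.86 ± 0.24, adjusted p = 6.27e-09). The dehydratase Hacd3 fell by 1.16 and the elongase Elovl2 by 0.92. Scd2, the Scd1 paralogue better known from brain, was the exception, with 0.623 to 29.9 ppm at 21 h, against 0 to 0.980 ppm at 0 h (1.88 ± 0.24, adjusted p = 6.26e-09), and near-identical stretches of Scd1 and Scd2 may share reads.

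Of the regulators of lipogenesis, 12 of 25 were lower and 4 higher (median -0.54). Insig1, which retains SREBP in the endoplasmic reticulum and is itself an SREBP target, had a median of 76.1 ppm at 21 h, against 224 ppm at 0 h (-1.70 ± 0.19, adjusted p = 1.04e-10). The nuclear receptors Rxra (-1.73 ± 0.19), Nr1h4, the bile acid receptor FXR (-1.44 ± 0.16), and Thrb, the main thyroid hormone receptor of liver (-1.32 ± 0.18), fell with it. Mid1ip1, the paralogue of Thrsp, was named after its values were seen and was lower by -0.72 ± 0.24 (adjusted p = 0.00986, and 0.0512 without TA animal 2). Of genes of lipid droplets, glycerolipid synthesis and export, 10 of 17 were lower and 1 higher (median -1.13). Gpam, the first acyltransferase of glycerolipid synthesis, stood at a median of 16.2 ppm at 21 h, against 75.4 ppm at 0 h (-1.97 ± 0.17), Mttp, the lipid transfer protein of lipoprotein assembly, at 104 ppm, against 231 ppm (-1.14 ± 0.10), and Apob, its client, at 962 ppm, against 2775 ppm (-1.47 ± 0.13). The acyltransferase Agpat2 fell by 1.58.

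Of other targets of ChREBP, LXR and thyroid hormone, 9 of 14 were lower and 1 higher (median -1.15). The LXR-driven sterol transporters Abca1 (-2.06 ± 0.17) and Abcg8 (-2.001 ± 0.30) fell, as did G6pc (-1.84 ± 0.19) and Dio1, the thyroid hormone deiodinase and a standard thyroid hormone target (-1.25 ± 0.18). In 21 h none against 21 h, this list had 5 of 14 lower and 1 higher, where 3.27% of all genes were lower and 23.2% higher. Carbon and NADPH supply had 1 of 20 lower and 5 higher, close to those shares of all genes, and no difference between the lists was tested. In each of these lists the median over all genes was 0.12 at 21 h, and the lists were drawn up with earlier results of these libraries known.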

How the data were processed

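RNA-Seq libraries were made from rRNA-depleted total RNA with strand-specific adapters and sequenced on a NextSeq 500. Per the paper's methods and the submitters' processing notes, reads were aligned to mm10 with Bowtie2 and tested with DESeq2 and Holm-Bonferroni correction; versions, counting tool and annotation are not given in the sources used here. The table deposited by the authors describes its values as ppm. On date C the deposited values are CPM, and 100% of them were whole multiples of 1 read (tolerance 0.05). For the remaining 56 libraries the deposited values have a step size of their own in each gene, which is a property of TPM. Columns that hold the authors' own comparisons, fold changes and p-values, were not used. Of the symbols, 27 had been turned into dates and 4 rows carry a repeated symbol. The labels give dexamethasone as 0.1 mM and the methods as 0.1 µM.

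Libraries were mapped to animals by blocks of title numbers, which equal the animals listed by the study for 48 of 49 libraries; the exception, NIC 21 h none of date B, was taken as animal 14. Genes with a mean above 1 ppm (11135) were tested with limma 3.58.1 (R 4.3.3, statmod 1.5.0) on log2(ppm + 1), with a term per father and culture, a term for date and the animal as a random block (consensus correlation 0.111, and 0.0957 in the model for NIC minus TA), because libraries of an animal share their source. This pseudocount understates changes of low genes. P-values were Benjamini-Hochberg adjusted over all genes. They rest on the spread between libraries, with 1 correlation within animals shared by all genes. Where libraries of an animal lie closer than that, as for Thrsp, the pairing within animals is used only in part. Within-animal differences were tested by exact sign flips and relations across animals by exact permutation within father and date (20736 permutations). The fits were tested on simulated data. edgeR 4.0.16 was run on the date C reads. Named genes were the 10 genes, up to 4 of smallest p per list at 21 h against 0 h, and the 5 most like Thrsp. One gene that this rule names is not reported here. The genes and lists were chosen with earlier results of these data known. Alternatives were another pseudocount, filter, scaling, block, weighting or set of libraries, and each animal left out.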

Additional observations from a re-analysis of the deposited data

Results flagged for a closer look

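Each gene was screened for a library far from the other 4 of its father and culture group in the time course, by the gap to the nearest value over the range of the group (Dixon's 95% criterion). Of 100 groups of 5, 18 had such a library, where about 5% are expected for independent groups of normally distributed values. The ppm were used without a log, and the groups share animals and related genes. The count is therefore a screen and does not show that more libraries than expected are aberrant. TA animal 2 accounted for 6 of them. It was the highest TA library in Thrsp at 1 h (2523 ppm), 3 h (2291 ppm) and 21 h (1097 ppm), in Fasn at 1 h (90.0 ppm) and 3 h (166 ppm), and in Srebf1 at 3 h (148 ppm).

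NIC animal 15 accounted for 4. It was the lowest NIC library in Elovl6 at 1 h (28.9 ppm) and 3 h (26.4 ppm), and at 21 h, where its library was the shallowest, the highest in Acaca (21.1 ppm) and Pnpla3 (11.7 ppm). NIC animal 11 was the highest in Fasn at 1 h (68.8 ppm) and in 21 h none (20.1 ppm). NIC animal 14 was the highest in Me1 at 21 h (65.2 ppm), again in a shallow library, and NIC animal 13 the lowest in Srebf1 at 1 h (31.5 ppm). TA animal 1 was the highest in Acaca in 21 h none (26.6 ppm).

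The remaining 3 were Pnpla3 libraries at levels near the lower limit, NIC animal 12 in 21 h none (0.216 ppm), TA animal 1 at 1 h (1.58 ppm) and TA animal 5 in 21 h none (1.11 ppm). No cause of these values was tested.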

How the results depend on the processing

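All 9 tested genes were lower at 21 h than at 0 h under each of the 32 alternatives, and the count of lower genes among the 5 lists was 50 to 56 as animals were left out in turn. At 3 h against 0 h, 1 gene passed with quantile normalisation and 3 with sample weights, against 0 in the reported fit. In 21 h none against 21 h, where 2 genes passed, 0 passed without a filter beyond a mean above 0, 0 with no replicate block and 1 without the libraries under 0.1 of the depth, and 0 to 3 as animals were left out. Me1 in that comparison turned to -0.062 with median-ratio scaling. The change of the Thrsp difference between fathers from 0 h to 21 h, 0.01, turned to -0.044 without the shallow libraries. It ran from -0.25 to 0.18 as animals were left out. The relation of Thrsp to Acly across animals fell to r = -0.0023 when date means alone were removed. NIC minus TA in Thrsp was 0.79 to 1.16 as animals were left out. Fits with the animal as a fixed term could not give NIC minus TA or the comparison of time course and 2 h animals, and time course libraries alone could not give the second. Apart from these and the calls named in the report, the replicate block changed no call. The cause of these shifts was not tested. Leaving the shallow libraries out of the order of likeness, the date differences in 21 h none and NIC minus TA at 21 h was chosen after the data were seen. Libraries of under 0.1 of the depth of the deepest leave low genes such as Pnpla3 and Mlxipl at or near 0, and 2 or 3 animals per father at 2 h leave those differences with SEs of 0.47 to 0.58 in Thrsp.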
